A study of Mus musculus with 10 samples.

Results

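The signalling lymphocytic activation molecule (SLAM) family was examined in cultured microglia of mice, the macrophages that reside in brain tissue. The family has 9 named receptor genes here: Slamf1, Slamf6, Slamf7, Slamf8, Slamf9, Ly9, Cd48, Cd84 and Cd244. Of these, 8 had a probe set of their own on the arrays, among 18976 genes with one. No probe set was found for Cd244 by symbol or accession, so only its promoter and chromosomal position were examined. The family was chosen from the authors' own comparison of the treatment groups, because of Ly9 and Slamf7. That comparison was not used here and none of its values is given. Microglia were shaken off mixed glial cultures of newborn wildtype C57BL6 pups. After withdrawal of serum they received 5 ng/ml recombinant human TGFb1, a cytokine that restrains microglial activation, or no agent, for 24 h. There were 5 arrays per group. The level of each gene is the authors' median intensity, 1 value per probe set, and the table's header does not say over which arrays it was taken. No array column could be tied to a sample by its name. The array columns were not used, so the values carry no error between arrays. The values are tied to neither group and cannot show whether any member differed between control and TGFb1-treated microglia.

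SLAM receptors are immunoglobulin-type proteins of blood cells. Most of them bind a copy of themselves on the neighbouring cell, and CD48 is instead the ligand of CD244. The cytoplasmic tails of most members carry tyrosine motifs that recruit the small adaptors SAP (Sh2d1a) and EAT-2 (Sh2d1b1), or phosphatases such as SHP-1 (Ptpn6) and SHIP-1 (Inpp5d). CD48, held in the membrane by a lipid anchor, has no such tail, and the tails of Slamf8 and Slamf9 lack the motif.

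Cd84, a receptor that binds itself, stood highest of the family, with a median intensity of 1406 (probe set 10351679), above 98.9% of all genes. Cd48 followed at 397 (probe set 10351658), above 95.1% of genes, and Ly9, the receptor CD229, at 248 (probe set 10360158), above 91.6%. All of them lay above the 90th percentile of genes, at an intensity of 209. Slamf9, one of the members without a tail motif, reached 109 (probe set 10351792), above 81.7% of genes. Slamf7, known as CRACC and as an activating receptor of natural killer cells, reached 74.6 (probe set 10360173), above 75.3%.

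The remaining members had lower signal. Slamf8, the receptor BLAME, had an intensity of 21.5 (probe set 10360306) and Slamf6, known as Ly108, of 15.0 (probe set 10351691), on either side of the median gene at 15.8. Slamf1, the founding receptor CD150, had the lowest intensity of the family, 4.56 (probe set 10351667), above 15.1% of genes. Over the 8 members the median percentile was 78.5, and 6 of 8 lay above the median gene. Each gene is read by its own probes, whose affinities differ, so the order is one of signal and not of transcript number. The values per array were not used, and neighbours in this order were not tested against each other.

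Olfactory receptor genes, which are typical of the nasal epithelium, served as a reference for low signal. The 373 of them with a probe set of their own had a median intensity of 3.84 and a 95th percentile of 11.5. Of the 8 members, 7 exceeded that percentile, against 56.5% of all genes. Cd84, Cd48 and Ly9 exceeded every olfactory receptor gene. Slamf9 and Slamf7 were each reached or exceeded by 2 of them, Slamf8 by 8 and Slamf6 by 11. Slamf1 was reached or exceeded by 146 of the 373, so its signal was not distinguishable from that of these genes. The plot of the members among all genes shows this spread.

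**Figure D1:**
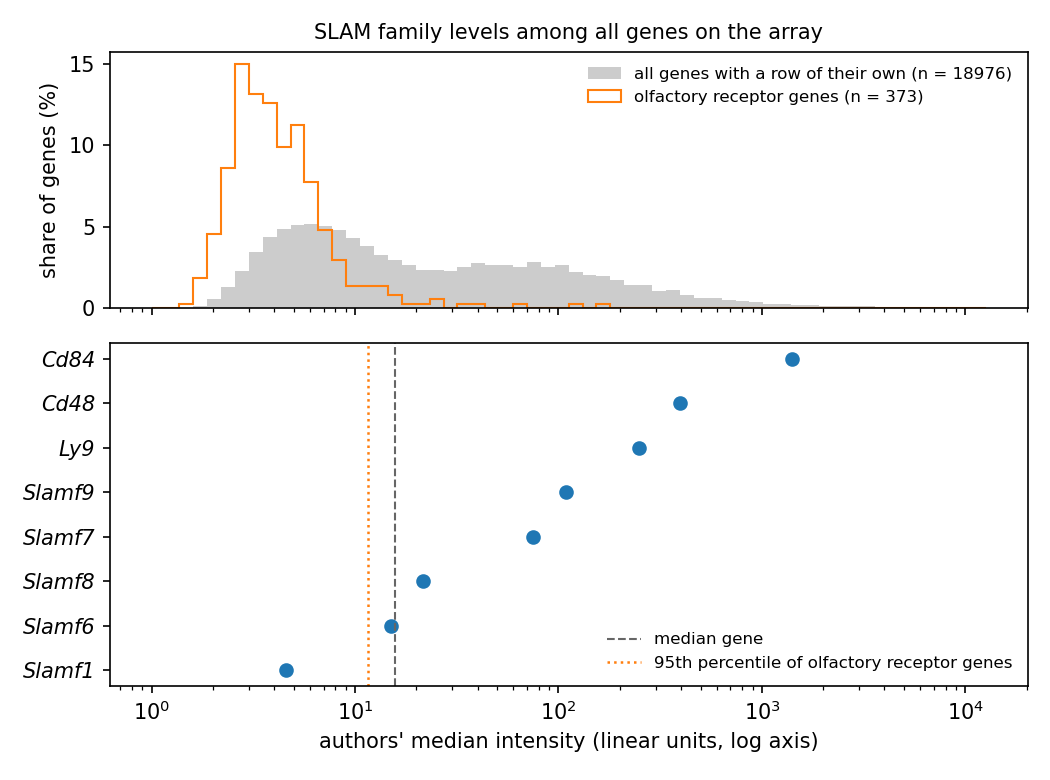
Top, share of genes (%) by the authors' median intensity (linear units, log axis) for all 18976 genes (grey) and 373 olfactory receptor genes (orange line). Bottom, the 8 measured SLAM family genes on the same axis, with the median gene (dashed, 15.8) and the 95th percentile of olfactory receptor genes (dotted, 11.5); Slamf1 alone lies left of both lines and Cd84 lies farthest right at 1406.

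The probe sets do not name the known transcripts of each gene alike. GENCODE M21 lists 3 protein-coding transcripts of Ly9, and all 3 are named on its probe set. Both protein-coding transcripts of Cd48 are named as well. For Cd84 the probe set names 1 of 4 and for Slamf7 1 of 5 such transcripts. Probe positions were not examined, so whether forms with other exons are read in full or in part is not known here. For Slamf6 the 2 Ensembl transcripts named on the probe set are not among the 7 of GENCODE M21. Slamf1, Slamf8 and Slamf9 each have a single protein-coding transcript there, and it is named on the probe set in each case. By its accessions each of the 8 members was found on 1 probe set, and no probe set was shared between a member and another gene.

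The family's genes lie on chromosome 1 of the mouse in a tight group and an outlying pair. In RefSeq (GRCm38.p6) Cd244, Ly9, Slamf7, Cd48, Slamf1, Cd84 and Slamf6 follow each other with 1 other gene of that table's protein-coding class among them, Tma7-ps, whose symbol is that of a pseudogene. After 14 further genes of that class come Slamf9 and Slamf8, with 4 genes between them. Levels were not alike along the tight group. Slamf1, at 4.56, lies directly beside Cd84, at 1406, and Slamf6, at 15.0, lies on the other side of Cd84. Among the 25 measured other genes of this stretch, taken with 5 genes to either side, intensities ran from 3.70 for Nhlh1, a neuronal transcription factor, to 1382 for Copa, a coat protein of transport vesicles. Of these 25, 14 lay above the median gene. F11r, a junctional adhesion molecule 3 genes from Cd244, had an intensity of 92.9, and Usf1, a widely used transcription factor, of 17.7. Tagln2, which binds actin, had 473 and Igsf8, an immunoglobulin-type protein that partners tetraspanins, had 44.9.

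**Figure D2:**
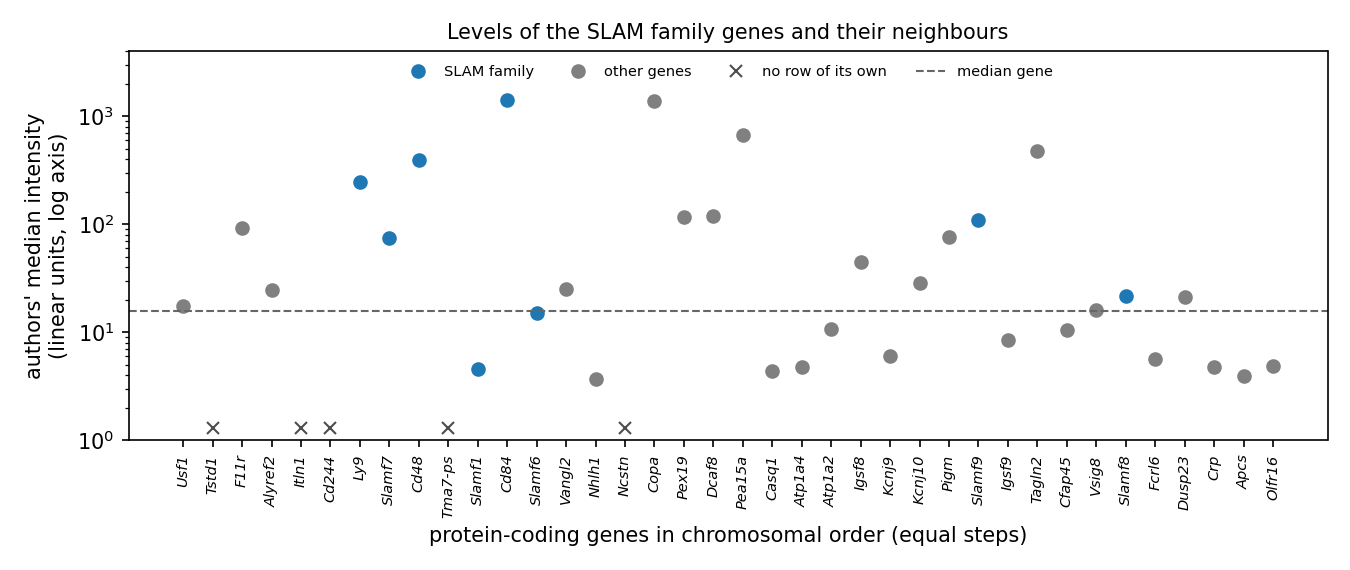
Authors' median intensity (linear units, log axis) of the genes around the SLAM family in chromosomal order, drawn in equal steps and not to scale; blue points are members, grey points other genes, and crosses genes with no value here. Members range from 4.56 (Slamf1) to 1406 (Cd84), side by side.

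The promoters of the members with the highest and the lowest signal are printed with that of Slamf7, as examples. The sequences are those of RefSeq (GRCm38.p6), from 250 bases before to 50 bases after the start of the gene, and 8 of 9 members matched, the exception being Ly9. Cd84 is at chr1:171839447-171839746 (plus strand), Slamf7 at chr1:171648950-171649249 (minus strand) and Slamf1 at chr1:171766882-171767181 (plus strand). Capitals mark, on either strand, the core bound by PU.1 (GAGGAA), a repeat bound by interferon regulatory factors (GAAANNGAA) and the AP-1 motif (TGANTCA). The first of these and the second can share letters.
Cd84: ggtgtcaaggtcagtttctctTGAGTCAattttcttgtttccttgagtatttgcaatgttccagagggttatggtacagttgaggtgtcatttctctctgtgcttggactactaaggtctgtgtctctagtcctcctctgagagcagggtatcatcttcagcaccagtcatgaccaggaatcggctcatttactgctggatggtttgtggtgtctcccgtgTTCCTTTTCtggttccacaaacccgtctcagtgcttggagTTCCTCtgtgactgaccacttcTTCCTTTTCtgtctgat
Slamf7: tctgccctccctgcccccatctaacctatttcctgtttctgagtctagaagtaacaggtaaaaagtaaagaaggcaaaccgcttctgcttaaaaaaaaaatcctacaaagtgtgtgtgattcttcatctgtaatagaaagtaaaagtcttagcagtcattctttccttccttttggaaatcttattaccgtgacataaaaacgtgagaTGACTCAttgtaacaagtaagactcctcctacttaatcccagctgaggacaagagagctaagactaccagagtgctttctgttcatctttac
Slamf1: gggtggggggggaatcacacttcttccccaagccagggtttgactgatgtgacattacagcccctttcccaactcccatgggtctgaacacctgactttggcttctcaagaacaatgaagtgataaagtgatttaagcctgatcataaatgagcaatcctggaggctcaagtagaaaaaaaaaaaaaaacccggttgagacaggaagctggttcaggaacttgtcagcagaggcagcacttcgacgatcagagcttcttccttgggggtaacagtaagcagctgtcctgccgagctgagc

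Cd84 held 2 interferon regulatory factor repeats, 1 PU.1 core and 1 AP-1 motif. Slamf7 held 1 AP-1 motif, whose first base lies at -42 where 0 is the first base of the gene, and Slamf1 held none of the 3 motifs. Cd48, at an intensity of 397, and Slamf6, at 15.0, also held none, while Slamf8, at 21.5, held all 3. Over the 8 promoters, 4 held a PU.1 core (Cd84, Slamf8, Slamf9 and Cd244), against 28.3% of the 32851 promoters of the same length in the table. AP-1 was in 4 of 8 (Cd84, Slamf7, Slamf8 and Cd244), against 7.81%, and the interferon regulatory factor repeat in 2 of 8 (Cd84 and Slamf8), against 8.56%. The SMAD box CAGAC, a short element bound by the mediators of TGFb signalling, was in 4 of 8 (Cd84, Cd48, Slamf1 and Slamf9), against 49.6%. TATAAA was in none of the 8, against 13.6%. A match of letters is a description of the sequence, and these counts were not tested.

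The adaptors most typical of the family lay close to or below the median gene. Most of the listed enzymes and other signalling genes lay above it. Sh2d1a, which encodes SAP, had an intensity of 4.98, and Sh2d1b2, a relative of EAT-2, of 3.73, both under the 95th percentile of olfactory receptor genes. Sh2d1b1, which encodes EAT-2, had 17.5, close to the median gene and above the 95th percentile of olfactory receptor genes. Prkcq, a kinase of T cells that SAP can bring to SLAM receptors, had 5.18. Fyn, the kinase that SAP recruits, had 137, and Csk, which restrains such kinases, 215. The phosphatase genes Inpp5d, Ptpn6 and Ptpn11 had 726, 433 and 161. The other listed signalling genes Hcls1, Vav1, Plcg2 and Sh3bp2 had 725, 376, 292 and 218. In all, 10 of 13 measured adaptor and enzyme genes exceeded the median gene, and the median of the list was 215.

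Of 5 other immunoglobulin-type genes listed beside the family, 2 exceeded the median gene, Igsf8 at 44.9 and Vsig8 at 16.1. The same 2 exceeded the 95th percentile of olfactory receptor genes. Cd2, which binds CD48 on rodent T cells, had an intensity of 5.26, and Igsf9 and Igsf9b had 8.41 and 8.89. Among integrins and their ligands, which hold cells together at the contacts where SLAM receptors work, Itgb2 and Itgam, the chains of the macrophage receptor CR3, had 1189 and 788. Icam1, Itgal, Itgax and Icam2 had 118, 60.0, 34.2 and 14.0.

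Genes that define lymphocytes, the cells in which the family is best known, mostly had signal below the median gene. The median intensity was 7.81 for the T and NK cell list and 6.39 for the B cell list, against 3.84 for olfactory receptor genes. Of 16 T and NK cell markers, 5 exceeded the 95th percentile of olfactory receptor genes, against 56.5% of all genes. The median gene was exceeded by 2 of the 16, Cd4 at 34.4 and Cd5 at 26.0. The T cell receptor chains Cd3d, Cd3e and Cd3g had intensities of 5.60, 12.2 and 3.99, and Ncr1, a marker of natural killer cells, had 3.71. Of 8 B cell markers Cd22 and Cd79b alone exceeded that percentile, at 74.0 and 27.7, while Ms4a1 had 2.68. Mast cell and granulocyte markers ran from 2.70 to 11.6, with S100a9 and Mpo highest. Of 8 dendritic cell markers, Cd209a and Batf3 alone exceeded the 95th percentile of olfactory receptor genes, at 232 and 17.1. The median of that list was 8.54, with Flt3 at 10.6 and Clec9a lowest at 2.49. Whether such cells contributed to the signal of SLAM genes was not tested, and in bulk samples fewer cells of a type and less RNA per cell cannot be told apart.

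Of 14 genes of microglia and macrophage identity, 13 exceeded the median gene, with Cd68 highest at 4757, Adgre1, which encodes F4/80, at 2359 and Siglech lowest at 6.48. Among listed genes that the paper calls microglia-specific, Csf1r, Fcrls and Cx3cr1 had 1721, 1136 and 819. Tmem119, P2ry12, Sall1 and Siglech, of the same kind, had 94.1, 40.4, 21.6 and 6.48. The value of Siglech lay below the 95th percentile of olfactory receptor genes. Border macrophage and monocyte markers were split, with 7 of 14 above the median gene. Ms4a7 and Stab1 had 2052 and 1361, whereas Ccr2, the chemokine receptor of monocytes, had 3.23. Of 8 astrocyte markers, 3 exceeded the 95th percentile of olfactory receptor genes, against 56.5% of all genes. These were Aldoc, Aldh1l1 and Gfap, at 48.9, 28.6 and 12.1. The list's median was 8.28, and Gja1 was lowest at 4.31. Of 8 oligodendrocyte markers, Cnp and Mbp alone exceeded that percentile, at 86.6 and 56.7, and the list's median was 7.85. Of 8 markers of fibroblasts and endothelium, Col1a1 and Kdr alone did so, at 18.8 and 13.5, with a list median of 9.18.

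**Figure D3:**
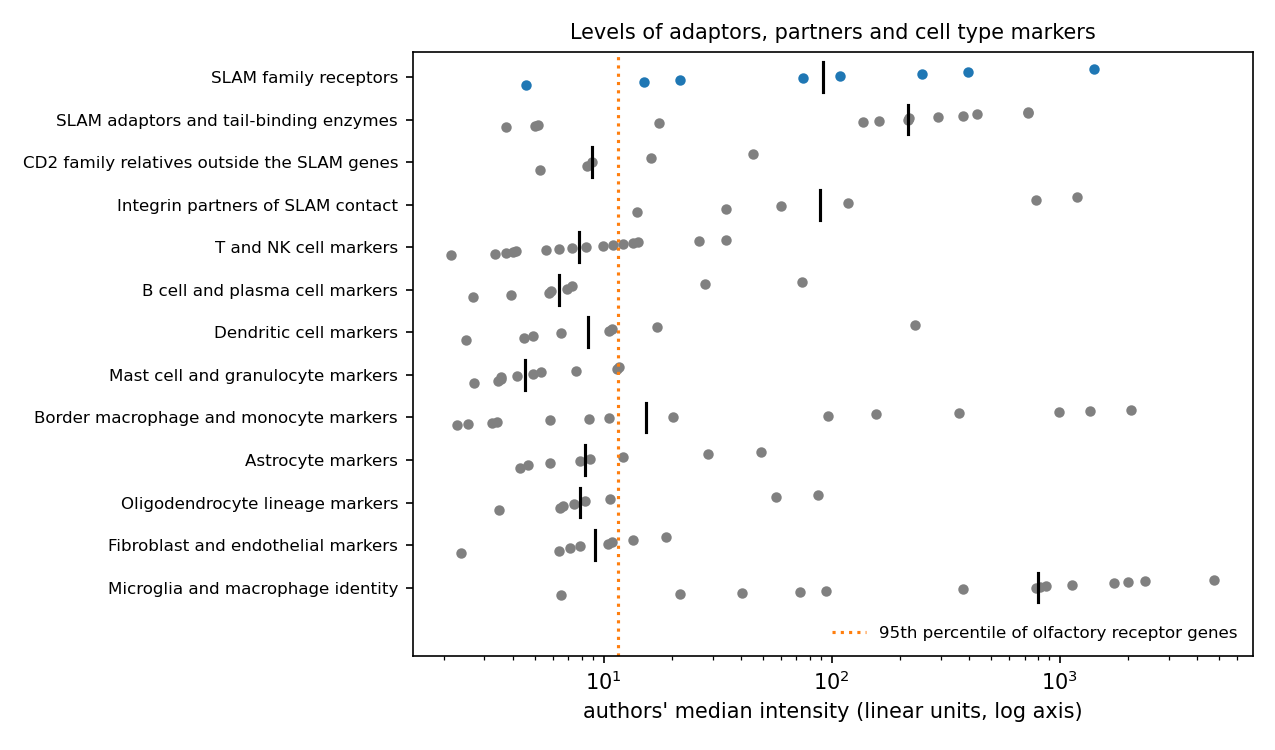
Authors' median intensity (linear units, log axis) of each measured gene of 13 lists, with a black bar at each list's median and the 95th percentile of olfactory receptor genes dotted. The SLAM family (blue, median 91.7) and its adaptor and enzyme list (median 215) spread on both sides of that line, while the T and NK cell list has a median of 7.81. The list labelled as CD2 family relatives holds Cd2 and other immunoglobulin-type genes.

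The deposited table also annotates the tissues in which transcripts of each gene had been catalogued. Spleen and mammary gland are each listed for all 8 measured members, against 52.6% and 70.2% of the 16913 genes with such an annotation. Thymus and bone marrow are each listed for 7, against 59.7% and 51.4%, and lymph node for 6, against 27.6%. Brain is listed for 3 members, Cd84, Cd48 and Slamf6, against 75.8% of genes. Ly9, which had the 3rd highest signal in these cells, is among those without it. The annotation is a record of earlier libraries and was not measured here.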

How the data were processed

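Total RNA was extracted with TRIzol, amplified with random primers, labelled with biotin and hybridised to Affymetrix whole transcript arrays, 5 of control and 5 of TGFb1-treated microglia. The paper names an array model for its sorted microglia only, and none is tied to these cultures. Whether the arrays within a group stem from different cultures, the genome build and the version of RMA are not given in the sources used here. RMA is named in the submitters' processing notes and covers background correction, normalisation and probe summary.

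The deposited table has 28361 probe set rows. The authors' median expression, a linear intensity as deposited, was the one value used. A further 10 columns of values per array carry names that match no sample label and were used in no step. The 5 columns of the authors' own comparison hold its effects, paired-test p-values and false discovery rates and were not used. No test between groups could therefore be made. The precision of the intensities, which the number of arrays limits, was not estimated.

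Rows with 1 gene symbol (21041) were kept, and the row with the highest median led for each symbol, giving 18976 genes. Rows with several symbols (2247), none (5061) or a date in place of a symbol (12) were left out. A percentile is the share of those genes with a lower intensity. List genes were matched by symbol, 4 of them through another symbol in RefSeq. Named were all members, the adaptor, other immunoglobulin-type and integrin lists, neighbours on the chromosome (each named in the plot of the stretch) and the 2 highest genes of each marker list. Defining markers and the lowest genes of some lists were named beyond that after their values were seen. The olfactory receptor reference and the promoter motifs were chosen once the table had been opened. The members and lists were chosen with earlier results of these data known. The percentile was tested on simulated data. The software was scipy 1.17.1, pandas 2.3.3 and numpy 2.4.6 under Python 3.11.15.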

Additional observations from a re-analysis of the deposited data

How the results depend on the processing

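The median percentile of the family, 78.5 among genes with the highest row per symbol, was 79.8 where the lowest row per symbol led, 80.3 among all 28361 probe set rows, and 78.5 among every row with 1 symbol. Single members shifted by -0.767 to 4.48 percentile points among all rows, by 0.105 to 1.78 with the lowest row and by -0.265 to 0.238 with every row of 1 symbol. Slamf6 moved from below to above the middle of the array under the first of these, at 53.6, and under the second, at 50.8. Each measured member had a single row, so these shifts come from the genes it was set against. The alternatives planned for a comparison of the groups (blocking, filtering, variance priors, centring, leaving out replicates, a stricter threshold) were not run. No paired analysis was possible because the array columns carry no replicate number or group that matches a label. There is 1 value per gene and the arrays behind it are not named. The 10 columns of values per array were not used, so the spread between arrays was not computed for any level given here. If both groups entered the median, a gene high in one and low in the other could show an intermediate value.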
